A study of Apis mellifera with 2 samples.

Results

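The miR-263 family of the honey bee, Apis mellifera ligustica, was taken as the entries named ame-miR-263 and ame-miR-263b in a table of miRNA counts from larvae. These are 2 of the 53 named miRNAs, and of 692 entries in all, since the table also lists 639 predicted miRNAs. A predicted entry with a like number, given by its place in the list of predictions, was not a member. The libraries came from larvae reared as queens or as workers in 3 colonies of a strain bred for royal jelly yield, 'Zhenongda No.1'. In each colony 150 larvae under 18 h old were moved into queen cups, where they were raised as queens, and worker larvae were the other group. Per caste and colony, 40 to 60 larvae were collected on days 4, 5 and 6, when they were 73 to 138 h old. The 3 sampling days were then pooled, which gave 1 queen library and 1 worker library, so ages and tissues were mixed within each library, and the labels do not say how the colonies were combined.

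miRNAs are short RNAs that lower the output of the messenger RNAs they pair with, mainly through a seed near their 5' end. miR-263 and miR-263b are insect relatives of the vertebrate miR-183 family, which is known from hair cells of the ear and other sensory cells. In Drosophila, miR-263a and miR-263b act together to keep the cells of sensory bristles alive, by repressing the cell death gene hid. miR-263 of the table matched the gene symbol Mir263a in the RefSeq annotation of assembly Amel_HAv3.1, where Mir263 is an older synonym, and miR-263b matched Mir263b. These genes lie on 2 different linkage groups. Mir263b lies within the span of the protein-coding gene LOC100578609, whereas Mir263a overlaps no other gene of that table and lies between LOC410239 and LOC410228. No other miRNA gene lay within 10 kb of either, so neither belongs to a close cluster in that annotation. No build is named for the counts in the labels, so this annotation served for names and neighbours and no position is printed.

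Listed counts summed to 2658259 for queen and 2318675 for worker, so 1 count was worth 0.376 and 0.431 CPM (counts per 1000000 listed counts). There were no replicates, so no test between castes was possible and no p-values were computed. Every interval given is an exact 95% interval for counting error only. It treats each read as an independent molecule, which PCR reads without molecular identifiers are not, and it holds no variation between colonies or larvae. The ratios compare these 2 libraries. No miRNA in the table is a defining marker of caste or larval stage that was used here, so the labels were not checked in that way.

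The first comparison asked how abundant each paralogue was in each caste. miR-263 was counted 3222 times in the queen library and 15091 times in the worker library. This was 1212 CPM in queen (1171 to 1255) and 6508 CPM in worker (6405 to 6613). Its level was thus higher in worker, and the counting intervals lay far apart. Among the 53 named miRNAs it ranked 22 in the queen library, between miR-12 at 1325 CPM and miR-9a at 939 CPM. In the worker library it ranked 13, between let-7 at 8489 CPM and miR-100 at 5127 CPM.

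miR-263b was the scarce member in both libraries. It had 71 counts in queen and 243 in worker, which was 26.7 CPM (20.9 to 33.7) and 105 CPM (92.04 to 119). Its level was also higher in worker, again with intervals that did not meet. Its rank among the named miRNAs was 41 in both libraries. In queen its neighbours in rank were miR-927 at 86.1 CPM and miR-13a at 25.2 CPM, and in worker they were miR-927 at 113 CPM and miR-133 at 60.8 CPM. The summed share of both members was 0.124% in queen (0.120 to 0.128) and 0.661% in worker (0.651 to 0.672). Any share moves with the rest of the library and does not by itself give molecules per larva. In pooled whole larvae, more cells of a type and more RNA per cell also cannot be told apart.

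**Figure D1:**
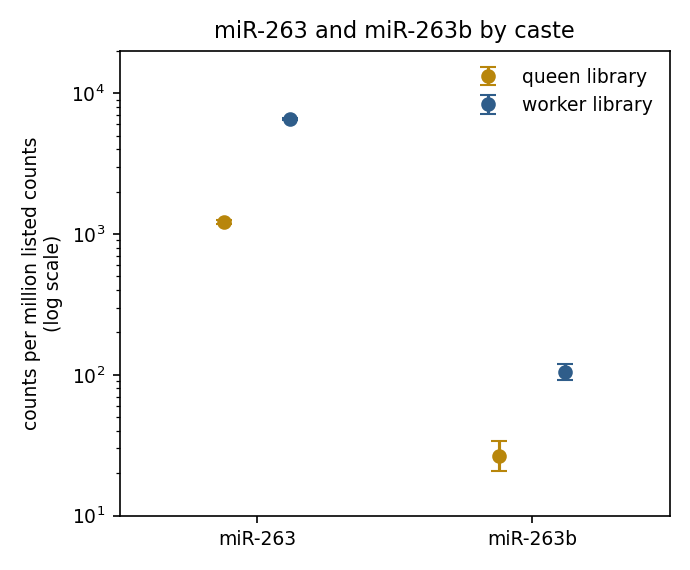
Level of miR-263 and miR-263b in the queen and worker libraries, in CPM on a log axis, with 1 library per caste. Bars are exact 95% intervals for counting error; miR-263 stands at 1212 and 6508 and miR-263b at 26.7 and 105, higher in worker for both.

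The second comparison asked how far each member differed between castes. In the worker library miR-263 stood 5.37-fold higher (5.17 to 5.58), a log2 ratio of worker over queen of 2.42. miR-263b was 3.92-fold higher there (3.001 to 5.19), a log2 ratio of 1.97 (1.59 to 2.37). A miRNA is called here when it differed at least 2-fold, the interval left out 1, and it had at least 20 counts over both libraries. Both members were called in the worker direction, where 12 of 49 assessed named miRNAs, or 24.5%, were called. In the queen direction 1 of 49, or 2.04%, was called. At a ratio of at least 4, miR-263 and miR-124 were the 2 called in the worker direction, 4.08% of those assessed, and miR-263b fell just short.

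By size of the log2 ratio in the worker direction, miR-263 ranked 2 and miR-263b ranked 3 of the 49, behind miR-124. The median log2 ratio of all 49 was 0.36, with the middle of the range, from the lower to the upper quartile, at 0.05 to 0.98. Relative to that median, miR-263 stood at 2.07 and miR-263b at 1.61 on the log2 scale, values that do not depend on how the libraries are scaled. Among 72 predicted entries with counts in both libraries and at least 20 in all, 4 had a larger worker ratio than miR-263 and 8 a larger one than miR-263b. In share of counts, miR-263 gained 0.530 percentage points in worker over queen, which was the rank 4 gain among the 49, after miR-1, miR-31a and miR-71. The gain of miR-263b was 0.00781 percentage points, at rank 24. The reads behind the ratios of the members thus differed greatly in number.

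**Figure D2:**
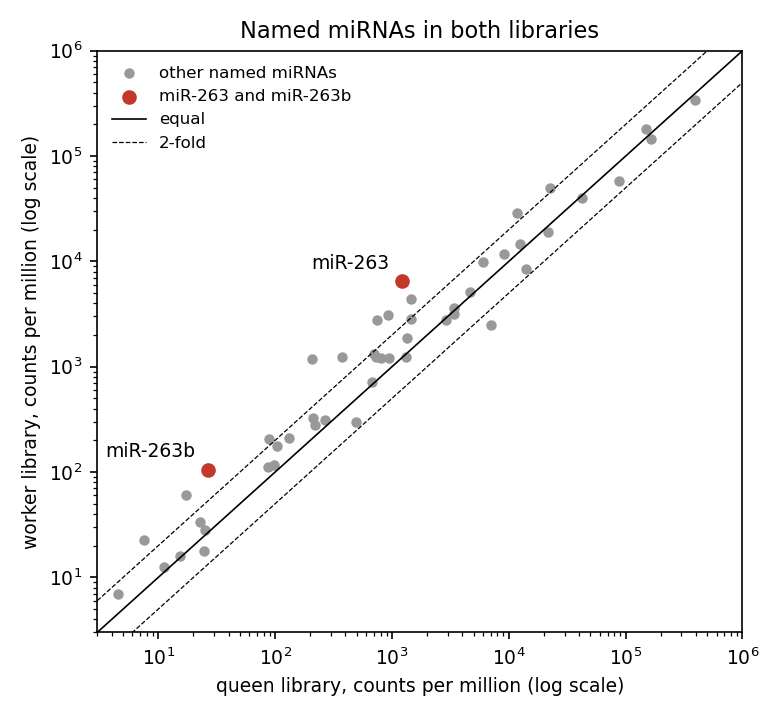
Level of the 49 assessed named miRNAs in the queen library (x axis) and the worker library (y axis), in CPM on log axes, 1 point per miRNA. The solid line marks equal levels and the dashed lines 2-fold; miR-263 and miR-263b, in red, lie above the upper dashed line at 5.37-fold and 3.92-fold.

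The size of these ratios depended on the scaling and their direction did not. Against the total, log2 ratios of all miRNAs fell by 0.43 with TMM factors, by 0.46 with the median of ratios and by 0.52 with totals that leave out the 5 most abundant miRNAs. Named miRNAs called in the queen and worker directions then numbered 4 and 9, again 4 and 9, and 5 and 9, in place of 1 and 12. Scaling by TMM factors gave 4.00-fold for miR-263 (3.85 to 4.15) and 2.92-fold for miR-263b (2.23 to 3.86). Leaving the 5 most abundant miRNAs out of the totals gave the smallest ratios, 3.74-fold (3.60 to 3.89) and 2.73-fold (2.09 to 3.61). Both members kept the call at 2-fold under all 5 scalings, where 18.4% of the assessed named miRNAs were called in the worker direction with TMM factors, with the median of ratios and with the shortened totals. With totals of named miRNAs only, 26.5% were called. The 4-fold call of miR-263 was lost with TMM factors, at 3.997, and with the next 2 of these scalings.

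**Figure D3:**
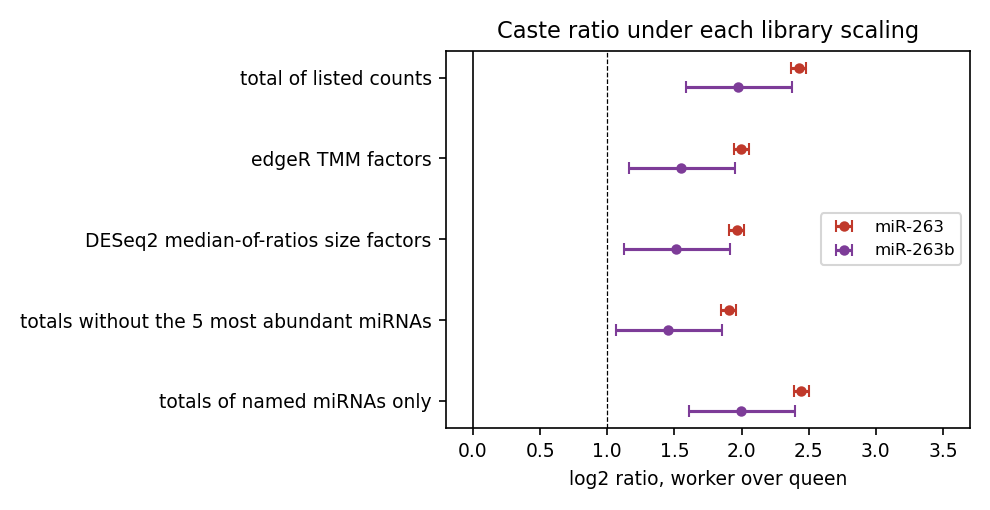
Log2 ratio of worker over queen for miR-263 (red) and miR-263b (purple) under 5 library scalings, with exact 95% counting intervals as bars. The solid line marks no difference and the dashed line 2-fold; the points of miR-263 lie between 1.90 and 2.45 and those of miR-263b between 1.45 and 1.99.

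Dividing the caste ratio of a member by that of another miRNA removes the scaling altogether. Measured so, the ratio of miR-263 exceeded that of 47 of the 48 other assessed named miRNAs, with a counting interval above 1 for each. The exception was miR-124, a miRNA of neurons, against which it stood at 0.939 (0.849 to 1.04). Among the 47, the lower bounds nearest to 1 were those against miR-281 (1.02), miR-263b (1.03) and miR-133 (1.07). These intervals are not adjusted for the 48 comparisons. The ratio of miR-263b exceeded that of 40 of 48 in the same way. It was below those of miR-263 and miR-124, and the interval held 1 against miR-133, miR-13b, miR-190, miR-281, miR-7 and miR-92b. For these 6 the counts of miR-263b do not resolve an order.

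The third comparison set the paralogues against each other within each library. miR-263 was counted 45.4 times as often as miR-263b in queen (35.9 to 58.3) and 62.1 times as often in worker (54.7 to 70.8). Put as a share of the family, miR-263b was 2.16% in queen (1.69 to 2.71) and 1.58% in worker (1.39 to 1.80). The family was therefore almost wholly miR-263 by counts in both castes. Ligation and PCR do not take up all sequences alike, so these are ratios of counts and not of molecules. Dividing the worker ratio by the queen ratio compares the same sequences in both libraries and removes the scaling. The result was 1.37 (1.03 to 1.79), so the caste difference of miR-263 was somewhat larger than that of its relative. With a 99% interval the bounds were 0.944 and 1.94 and held 1. At the queen ratio of the paralogues, 333 counts of miR-263b would go with the 15091 worker counts of miR-263, where 243 were counted. The 333 rests on only 71 queen counts of miR-263b and is given without an interval, so this shortfall is no firmer than the ratio of 1.37. The labels do not say how reads that fit both members were assigned, so the values of miR-263b, the smaller entry, are the more uncertain in this respect, and the effect was not tested.

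For comparison, 4 other pairs of related miRNAs were treated alike. The ratio of miR-13b over miR-13a was 36.6 in queen and 110 in worker, a change of 3.02 times (2.10 to 4.32). That of miR-92b over miR-92a was 3.34 and 9.94, a change of 2.97 times (2.62 to 3.37). In both of these pairs 1 member was called in the worker direction and the other was not. For miR-9a over miR-79 the change was 1.21 times (1.11 to 1.32), and for miR-996 over miR-279 it was 0.990 (0.957 to 1.02). Neither member of these last pairs was called. In the miR-263 pair both members were called, which held in none of the 4 others under the main scaling. Of all assessed named miRNAs, 12 of 49 (24.5%) were called in that direction. So few pairs, chosen with earlier results known, do not set the miR-263 pair apart. With the assignment of reads that fit both members unknown, the calls of miR-263 and miR-263b may also not be independent, which was not tested. The relatives miR-2 and miR-13b, not among these pairs, stood at 1.97-fold and 3.35-fold, and both were called with totals of named miRNAs only. The interval of the miR-263 pair for the change lay below those of the miR-13 and miR-92 pairs and overlapped that of the miR-9a pair.

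**Figure D4:**
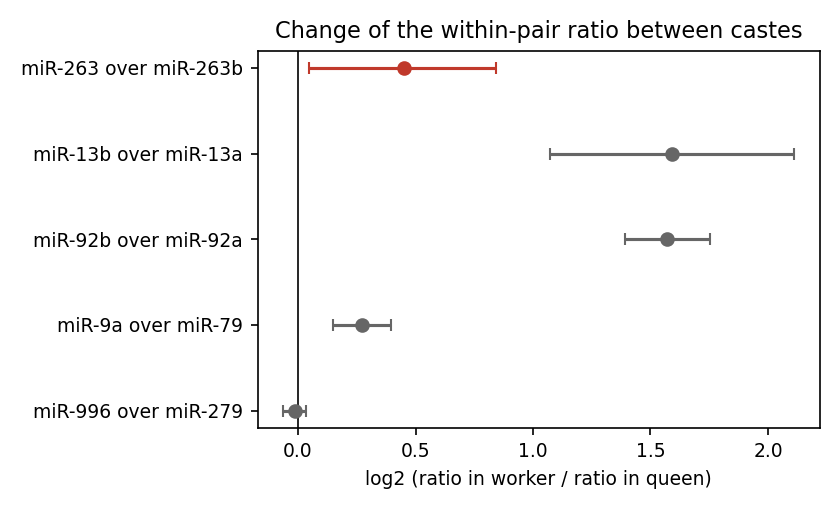
Change of the within-pair count ratio from the queen to the worker library, on a log2 scale, for miR-263 over miR-263b (red) and 4 other pairs of related miRNAs (grey). Bars are exact 95% counting intervals and the line marks no change; the miR-263 pair stands at 0.45, against 1.59 for the miR-13 pair, 1.57 for the miR-92 pair, 0.27 for the miR-9a pair and −0.01 for the miR-996 pair.

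The fourth comparison looked for miRNAs with a like pattern or a like level. Likeness of pattern was the distance between log2 caste ratios over the 2 libraries, which is a coarse measure. Nearest to miR-263 was miR-124, 0.09 away at 5.72-fold (5.22 to 6.28), with 207 CPM in queen and 1183 CPM in worker. Next came miR-92b, 0.51 away at 3.77-fold (3.58 to 3.97), and miR-133, a muscle miRNA, 0.61 away at 3.51-fold (2.50 to 5.01). Nearest to miR-263b were miR-92b at 0.06, miR-133 at 0.16 and miR-13b, 0.23 away at 3.35-fold (3.20 to 3.51). All these miRNAs were higher in the worker library, which follows from choosing them by nearness to ratios in that direction.

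miRNAs of a like level did not share one caste ratio. Nearest to miR-263 in mean log2 CPM were miR-279, miR-190 and miR-iab-4, a miRNA of the Hox gene region. miR-279 had 2918 CPM in queen and 2785 CPM in worker, and miR-iab-4 had 3409 and 3178 CPM. Neither was called. miR-190 had 1453 and 4382 CPM and was 3.02-fold higher in worker (2.91 to 3.13), a call that it kept under all 5 scalings. Nearest to miR-263b were miR-133, with 17.3 and 60.8 CPM, miR-927, with 86.1 and 113 CPM, and miR-29b, with 22.9 and 33.6 CPM. miR-133 was called, while miR-927 at 1.31-fold (1.09 to 1.57) and miR-29b at 1.47-fold (1.04 to 2.08) were not. The direction of miR-927 turned under 3 of the other scalings.

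The last comparison placed the family among miRNAs with related roles in Drosophila. In a list of 8 miRNAs of sensory organs and the nervous system, all 8 were in the table and 6 were assessed. Of these, 2 were called in the worker direction and 0 in the queen direction, beside 12 of 49 (24.5%) and 1 of 49 (2.04%) of all assessed named miRNAs. A list of 6 does not separate such a count from that background. miR-124 was 5.72-fold higher in worker, and miR-7, which acts in photoreceptor and sensory organ development, was 3.31-fold higher (3.08 to 3.56). miR-9a, which limits the number of sensory organ precursors, had a log2 ratio of 0.36, which turned negative with 3 of the other scalings. miR-279 and miR-996, which share a role in preventing extra carbon dioxide sensing neurons, had −0.07 and −0.08. miR-137 had 0.61 (−0.56 to 1.82) on 12 and 16 counts. miR-219, with 0 and 2 counts, and miR-932, with 4 and 8, were too scarce to assess. The list's median log2 ratio was 0.49 beside 0.36 for all 49, and without the 5 leading miRNAs in the totals these medians were −0.04 and −0.16.

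In a list of 8 miRNAs tied to cell death in Drosophila, 5 were in the table and all 5 were assessed. 1 of 5 was called in the worker direction and 0 in the queen direction, again beside 24.5% and 2.04% of the 49, so its share did not exceed the background. This was miR-13b, a relative of miR-2, a family that represses cell death genes in Drosophila, at 3.35-fold. miR-2 had 1.97-fold (1.89 to 2.05), just short of the threshold, and passed it with totals of named miRNAs only. miR-14, a suppressor of cell death, had 1.91-fold (1.80 to 2.02). bantam, which like the miR-263 family represses hid in Drosophila, had 1.42-fold (1.35 to 1.48), with 1333 CPM in queen and 1887 CPM in worker. Its log2 ratio of 0.50 fell to −0.02 without the 5 leading miRNAs in the totals. miR-13a had 0.15 (−0.36 to 0.67) and turned negative with 3 of the other scalings. The list's median log2 ratio was 0.93 beside 0.36 for all 49, and every scaling shifts both medians by the same amount. That median rests on 5 entries, among them the relatives miR-2, miR-13a and miR-13b. So short a list does not separate it from the background. The caste ratio of miR-263 was 3.79 times that of bantam (3.58 to 4.02), and that of miR-263b was 2.77 times (2.11 to 3.68), whatever the scaling.

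Of the 3 tissue markers, miR-124 and miR-133 were called in the worker direction and miR-1 was not called. This stands beside 12 of 49 (24.5%) of all assessed named miRNAs, and 3 entries do not separate such a count from that background. The call of miR-124 was already counted in the list of sensory organs and the nervous system. The 1 neuron marker, miR-124, went from 207 CPM in queen to 1183 CPM in worker, the largest worker ratio of the 49. The other nervous system miRNAs assessed had smaller ratios. Of the 6 assessed in that list, the 2 called were miR-124 itself and miR-7, at 3.31-fold. The 4 not called included miR-279 and miR-996, at log2 ratios of −0.07 and −0.08. Of the 2 muscle markers, miR-133 went from 17.3 to 60.8 CPM, while miR-1 had 150096 and 179964 CPM, a log2 ratio of 0.26 that turned negative under 3 of the other scalings. The summed level of the muscle markers, 150113 CPM in queen and 180024 CPM in worker, was almost wholly that of miR-1. None of these markers was at 0 in either library. The part of tissue makeup in the ratios of miR-263 and miR-263b was not tested.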

How the data were processed

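Small RNA of 18 to 30 nt was gel-selected from pooled larval RNA, ligated to adapters, amplified and sequenced on a Solexa platform, per the labels' protocols. The authors deposited whole-number counts per miRNA entry, 1 column per caste. A further 242 columns are empty. For the aligner, miRNA caller, build and annotation, no name is given in the sources used here. Arms were not told apart.

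Counts were scaled to each library's total of listed counts. Intervals of shares and ratios are exact Clopper-Pearson intervals, conditional on the summed count for ratios, and ratios of ratios carry exact conditional odds ratio intervals. For calling only, a count of 0 was replaced by 3 counts. The text names both members, for each the 3 named miRNAs nearest in log2 ratio and in mean log2 CPM, the lists, and the related pairs. Members, lists and pairs were chosen with earlier results of these data known. Other scalings used TMM factors of edgeR 4.0.16, the median of ratios of DESeq2 1.42.0 (both packages for scaling alone), totals without the 5 leading miRNAs and totals of named miRNAs. Calling and intervals were tested on simulated counts that held counting error only. That test does not cover PCR copies or variation between libraries, colonies or larvae. Software was Python 3.11.15 with scipy 1.17.1, numpy 2.4.6, matplotlib 3.10.9 and pandas 2.3.3, and R 4.3.3.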

Additional observations from a re-analysis of the deposited data

How the results depend on the processing

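The direction of both caste ratios was the same under all scalings tried, and each member kept its 2-fold call. The worker over queen ratio of miR-263 (5.37) became 4.00 with TMM factors, 3.90 with the median of ratios, 3.74 without the 5 leading miRNAs in the totals and 4.19 relative to the median named miRNA. That of miR-263b (3.92) became 2.92, 2.85 and 2.73 with the first 3 of these. At a ratio of at least 4, miR-263b, at 3.92, was not called. The change of the paralogue ratio, 1.37, held 1 within its 99% interval. These moves follow from constants added to every log2 ratio, from the threshold or from the wider interval. The family's share was 0.128% of queen and 0.694% of worker counts of named miRNAs, and 0.740% and 2.75% of totals without the 5 leading miRNAs. Named miRNAs called in the queen direction (1) became 4 with TMM factors, 4 with the median of ratios, and 5 with totals that leave out the 5 leading miRNAs. At thresholds of 1.5 and 4 the count was 3 and 0, the highest queen ratio being 2.85, of miR-375. Those in the worker direction (12) became 20 at 1.5 and 2 at 4. No paired analysis was possible because there is 1 library a caste, and for the same reason no library could be left out. Depth limits miR-263b, whose queen value rests on 71 counts.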
